A study of Homo sapiens with 35 samples.

Results

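The genes described here are 10 genes of the NF-kappaB system: the subunits NFKB1, NFKB2, REL, RELA and RELB, the inhibitors NFKBIA, NFKBIE and TNFAIP3, and BIRC3 and TRAF3. They were taken by symbol from the protein-coding entries of a count table, and all 10 of 10 were found among 19665 such entries and tested. The cells were RPMI-8226, an established human multiple myeloma line. They were grown in medium with serum, exposed to 750 nM carfilzomib, an irreversible proteasome inhibitor, for 1 h, washed, and returned to medium without drug. RNA was sequenced on days 0, 1, 2, 4, 6, 8 and 10 with 5 replicates a day, 35 libraries in all. The sample labels list carfilzomib for every library, day 0 included, but the study's methods place the day 0 collection before the drug, and day 0 is used here as the untreated reference. All groups therefore share the same line and type of medium and differ in the pulse and in time. They also differ in handling. By the methods, day 0 cells were set to a fixed density in fresh medium, and samples from day 2 on were taken just before a medium change. Density was set again on days 6 and 8, so the age of the medium and the density may differ between days. No untreated cultures were sampled at later days here, so time in culture, handling and the pulse cannot be told apart. The methods describe the replicates as subcultures of 1 expanded culture, whereas legends of the study call them independent experiments. If they are subcultures, p-values measure the spread between these, library preparation included, and not between separate experiments.

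NF-kappaB factors are dimers of the subunits. NFKB1 and NFKB2 encode precursors that are processed to shorter DNA-binding subunits, and RELA, RELB and REL carry the transactivating domains. In resting cells inhibitor proteins such as IκBα, the product of NFKBIA, and IκBε, that of NFKBIE, hold the dimers in the cytoplasm. In the canonical arm a kinase complex marks the inhibitors for degradation by the proteasome. In the noncanonical arm, TRAF3 together with the BIRC3 product keeps the kinase encoded by MAP3K14 low, and loss of that brake leads to proteasomal processing of the NFKB2 precursor, which pairs with RELB. NFKBIA, TNFAIP3, BIRC3, NFKB2, RELB and REL are known as NF-kappaB target genes themselves, and activation of the pathway is common in myeloma.

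Because several of these genes are known targets of the factors that they encode or restrain, the letters of their promoters are shown first. Promoter windows of RefSeq (GRCh38.p14, 250 bases before to 50 after a listed start) were found for 8 of the 10 genes, with 12 starts. The NF-kappaB consensus motif, on either strand, was in a window of 7 of these 8 genes, and of 13.3% of all 27305 genes with a listed window. The narrower form GGGANNTTCC, a part of the consensus, was in 5 of 8 and in 1.97% of all genes. No match was found in the window of RELA. Each line below gives 30 bases around a match, 5′ to 3′ on the strand of the gene, with the matching letters in capitals and overlapping matches run together. For NFKB2 and BIRC3, which held further matches, 1 stretch is given.
NFKBIA (chr14:35404811-35404840, minus strand): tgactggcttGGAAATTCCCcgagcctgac
TNFAIP3 (chr6:137867188-137867217, plus strand): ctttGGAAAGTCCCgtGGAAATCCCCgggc
NFKB1 (chr4:102501300-102501329, plus strand): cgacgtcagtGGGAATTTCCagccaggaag
NFKB2 (chr10:102395674-102395703, plus strand): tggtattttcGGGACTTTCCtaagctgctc
REL (chr2:60881517-60881546, plus strand): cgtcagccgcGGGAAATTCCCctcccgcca
BIRC3 (chr11:102317275-102317304, plus strand): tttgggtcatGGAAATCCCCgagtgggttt
TRAF3 (chr14:102777406-102777435, plus strand): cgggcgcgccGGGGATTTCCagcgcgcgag
The NFKBIA match lay 81 to 72 bases before the start, and that of NFKB1 49 to 40 bases before it. The matches of NFKBIA and NFKB1 read the same 10 letters, GGGAATTTCC, on opposite strands of their genes. A match of letters is a description of the window and does not show that a factor was bound there in these cells.

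The libraries held 6519392 to 10962890 counts (median 7643975). Of 19665 entries, 17999 had a count in at least 1 library and were tested with edgeR's quasi-likelihood test, and Q is the Benjamini-Hochberg adjusted p over all 17999. A gene is called higher or lower at Q of at most 0.05. CPM is the count of an entry scaled to the TMM-normalized library size. Plasma cell markers matched the label of the line, with XBP1 at 391 to 470 CPM and SDC1 at 221 to 335 CPM in the day means, while CD27 was at 0.141 CPM or less in every day mean. The summed level of the 10 plasma cell markers was 6370 to 7280 CPM on day 0, 2590 to 2950 CPM on day 1 and 7120 to 8520 CPM on day 10, and most of it was JCHAIN. Of 15 markers of other cells, CD68, EPCAM and KRT8 held most of a sum that stayed between 177 and 289 CPM. Low levels were present for MS4A1 (5.37 to 11.5 CPM in the day means), PECAM1 (1.17 to 6.54), PAX5 (1.67 to 4.2) and CD3E (0.754 to 3.64). COL1A1 was at 0.855 CPM or less, COL1A2 had no count, and CD3D and HBB were at 0.121 CPM or less in every day mean. The part of the JCHAIN-led fall on day 1 in the results below was not tested. In RNA of a whole culture, fewer cells with a transcript and less of it per cell cannot be told apart.

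Per kilobase of the canonical transcript, the levels before the pulse were highest for NFKBIA (97.5 CPM per kilobase) and NFKB2 (94.9), followed by RELA (65.2) and BIRC3 (37.1). RELB (27.8), TNFAIP3 (25.3), NFKBIE (20.6) and NFKB1 (16.7) were lower, and REL (4.55) and TRAF3 (1.52) lowest. On day 10, NFKB2 (54.4 CPM per kilobase) and RELA (46.9) led, and NFKBIA had 23.8. These levels rest on 1 transcript length per gene and have no test between genes.

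After the pulse, 9 of the 10 genes were lower than on day 0 at 1 or more days, NFKB1 being the exception. The genes were first called lower at different times. REL, NFKBIA, TNFAIP3, RELB, NFKBIE and RELA had fallen by day 1, NFKB2 and BIRC3 were not called on day 1 and had fallen by day 2, and all 8 were still called lower on day 10. In the order of days from 1 to 10, the number of the 10 genes called lower was 6, 9, 9, 9, 8 and 9, where 27.3%, 24.4%, 20.1%, 17%, 18.6% and 15.8% of all entries tested were. Every library was below every day 0 library for 5, 8, 9, 9, 8 and 9 of the genes, and for 20.1%, 18.2%, 14.6%, 12.4%, 12.9% and 11.5% of all entries. NFKB1 was the 1 gene called higher, on days 1, 6 and 10, against 25.4%, 17.5% and 16.1% of all entries, and no gene was called higher on days 2, 4 and 8 (23.2%, 19% and 18.2% of all entries). Median log2 fold changes over the 10 genes were -0.32, -1.14, -1.03, -0.89, -1.10 and -0.95 from day 1 to day 10, where the medians over all entries tested lay between -0.06 and 0. With a fold change above 2 as a second condition, 3, 6, 5, 5, 5 and 5 genes were called lower, against 13.2%, 8.94%, 5.29%, 3.52%, 4.58% and 3.52% of all entries.

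**Figure D1:**
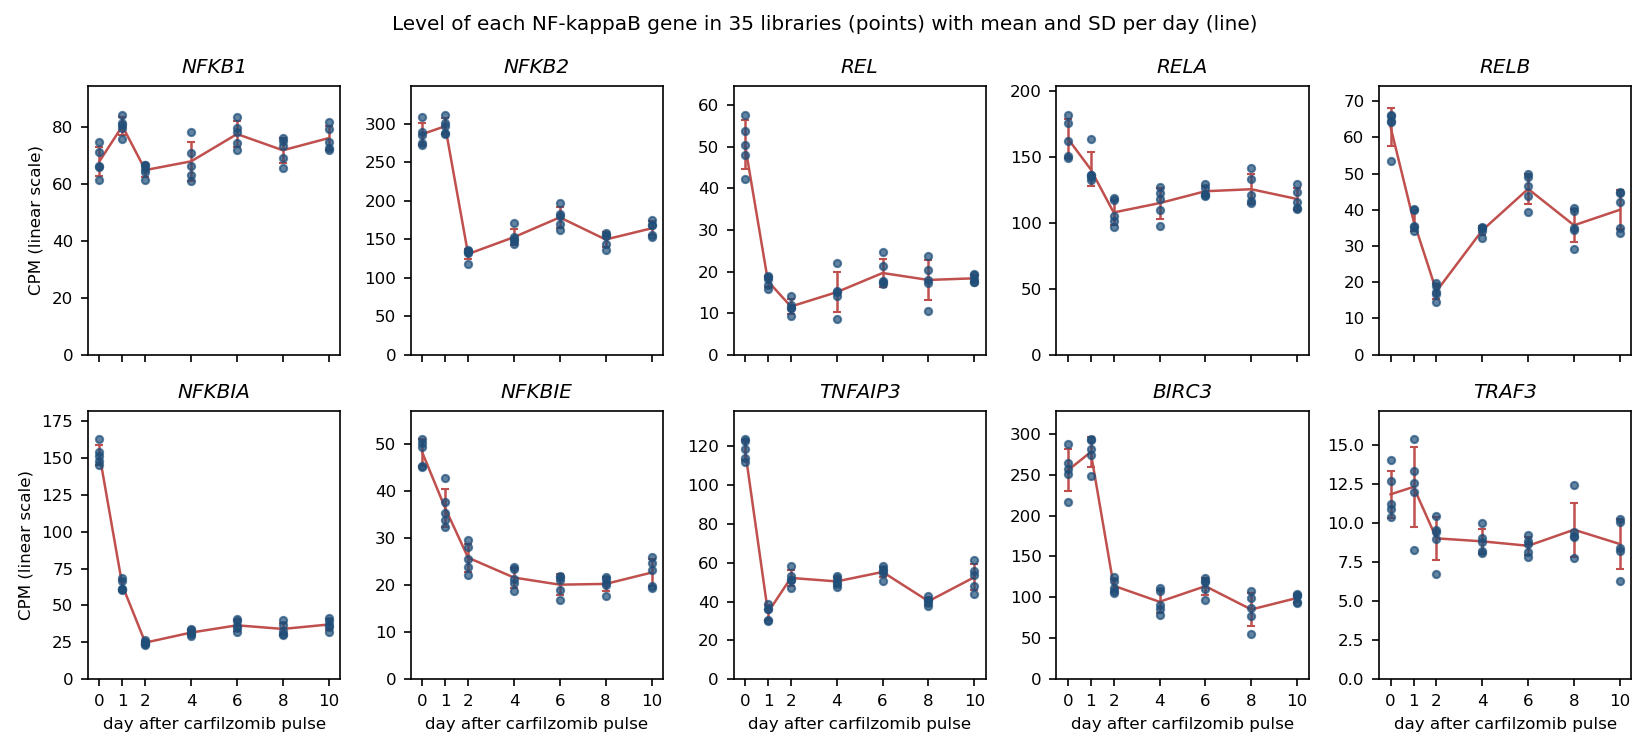
Level of each of the 10 genes by day, in CPM on a linear axis from 0. Points are the 35 libraries, and the line joins the day means with SD bars (n = 5 per day). NFKBIA fell from a mean of 152 CPM to 24.8 CPM on day 2, and NFKB1 stayed between 64.8 and 80.3 CPM. With TMM factors, NFKB2 and BIRC3 were not called against day 0 on day 1 and were lower from day 2.

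Among the inhibitors, NFKBIA changed most. Its level was 163, 152, 154, 148 and 145 CPM in the day 0 libraries. On day 1 the libraries held 61.0, 60.4, 66.4, 68.4 and 61.4 CPM, and on day 2 they held 24.4, 24.1, 25.4, 26.7 and 23.3 CPM. No library after the pulse reached the lowest day 0 library. NFKBIA was 2.4-fold lower on day 1 (log2 fold change -1.26 ± 0.07 SE, Q = 1.04e-19) and 6.16-fold lower on day 2 (-2.62 ± 0.07, Q = 9.14e-29). From day 2 to day 4 it rose (0.35 ± 0.08, Q = 0.000523). Its means on days 4, 6, 8 and 10 were 31.6, 36.5, 34.1 and 37.1 CPM, no step between consecutive days was called among them (Q of 0.0838 to 0.643), and day 10 was higher than day 4 (0.23 ± 0.08, Q = 0.0487). On day 10 the mean was 24.3% of that of day 0 (-2.04 ± 0.07, Q = 6.67e-25). On day 10 its libraries held 39.4, 41.3, 35.7, 37.0 and 31.9 CPM.

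NFKBIE, the gene of the second inhibitor, fell in smaller steps and had no called rise between consecutive days. Its mean level from day 0 to day 6 was 48.2 ± 2.8, 36.3 ± 4.1, 25.8 ± 2.97, 21.6 ± 2.12 and 20.1 ± 2.17 CPM (SD, n = 5). It was lower on day 1 (-0.41 ± 0.09, Q = 0.000147), fell again from day 1 to day 2 (-0.49 ± 0.09, Q = 2.35e-05) and from day 2 to day 4 (-0.26 ± 0.10, Q = 0.0344). Every library from day 1 on was below every day 0 library. On day 10 NFKBIE stood at 22.6 ± 2.93 CPM (-1.09 ± 0.09, Q = 1.21e-12), and no pair among days 4 to 10 was called.

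TNFAIP3 encodes A20, an enzyme that edits ubiquitin chains and restrains canonical signalling. Its 5 day 0 libraries held 123, 119, 124, 114 and 112 CPM. On day 1 they held 39.0, 30.7, 36.1, 30.02 and 36.4 CPM, a 3.43-fold fall (-1.78 ± 0.07, Q = 1.39e-23), the largest of the 10 genes on that day. TNFAIP3 was the only one of the 10 that rose from day 1 to day 2 (0.60 ± 0.08, Q = 9.85e-09), with 46.8, 51.4, 51.2, 58.5 and 53.2 CPM on day 2 and every library above every day 1 library. It then fell from day 6 to day 8 (-0.46 ± 0.07, Q = 5.29e-05) and rose from day 8 to day 10 (0.39 ± 0.07, Q = 0.000207). The means of these 3 days were 55.3 ± 2.81, 40.2 ± 1.77 and 52.6 ± 6.76 CPM (SD, n = 5), and day 8 did not overlap with either neighbour. The share of all entries without overlap between 2 later days is not given, here and for RELB and BIRC3 below. On day 10 the level was 44.5% of that of day 0 (-1.17 ± 0.07, Q = 3.02e-17).

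Of the 5 subunits, REL was the lowest in counts and changed most. Its day 0 libraries held 48.1, 50.5, 42.2, 53.9 and 57.8 CPM. They held 16.8, 18.9, 15.7, 18.7 and 18.3 CPM on day 1 (-1.51 ± 0.15, Q = 1.16e-11) and 9.33, 11.2, 11.2, 12.03 and 14.2 CPM on day 2 (-2.13 ± 0.15, Q = 1.74e-15). On days 4 and 8 the replicates spread widely, from 8.45 to 22.1 CPM and from 10.5 to 23.7 CPM, on 53 to 128 and 55 to 192 counts. REL fell from day 1 to day 2 (-0.62 ± 0.16, Q = 0.00211) and was higher than on day 2 on days 6, 8 and 10 (0.77, 0.66 and 0.67, Q of 0.000101 to 0.000983). No neighbours in the order of means after day 0 were called (Q of 0.0869 to 1). The day 10 mean was 18.4 ± 0.87 CPM (SD, n = 5), 36.4% of day 0 (-1.46 ± 0.15, Q = 1.26e-10).

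RELB, the partner of processed NFKB2, was lowest on day 2 and came back in part. Its day 0 libraries held 64.6, 65.9, 53.4, 64.1 and 66.2 CPM. They held 40.3, 34.2, 35.4, 40.0 and 35.2 CPM on day 1 and 17.2, 19.8, 19.0, 16.8 and 14.5 CPM on day 2. These 3 days did not overlap. RELB fell on day 1 (-0.76 ± 0.09, Q = 7.12e-10) and was 3.57-fold lower than day 0 on day 2 (-1.83 ± 0.09, Q = 2.98e-20). It rose from day 2 to day 4 (0.96 ± 0.10, Q = 1.54e-10) and from day 4 to day 6 (0.41 ± 0.09, Q = 0.00104), to 46.6, 49.1, 39.5, 43.8 and 49.8 CPM. All 5 of these libraries were still below the lowest of day 0. A fall from day 6 to day 8 followed (-0.36 ± 0.09, Q = 0.0157), and the day 10 mean was 40.0 ± 5.33 CPM (-0.65 ± 0.09, Q = 8e-08).

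NFKB2 was first called lower a day later than RELB. It had 276, 309, 290, 273 and 285 CPM on day 0 and 297, 288, 287, 301 and 312 CPM on day 1, and these ranges overlapped (0.05 ± 0.05, Q = 0.442). On day 2 it had 133, 132, 136, 134 and 118 CPM, 2.27-fold less than on day 1 (-1.18 ± 0.05, Q = 2.45e-21) and 2.19-fold less than on day 0 (-1.13 ± 0.06, Q = 6.16e-21). It rose to 153 ± 10.6 CPM on day 4 and 178 ± 13.7 CPM on day 6, each step by the test (0.22 ± 0.06, Q = 0.00155, and 0.22 ± 0.06, Q = 0.00419), fell to 149 ± 9.18 CPM on day 8 (-0.25 ± 0.06, Q = 0.00446), and stood at 164 ± 9.07 CPM on day 10 (SD, n = 5). All libraries from day 2 on were below every day 0 library, and on day 10 NFKB2 was 1.75-fold lower (-0.80 ± 0.05, Q = 1.82e-15). The day 1 value depended on the scaling, since with library sizes used without TMM factors NFKB2 was called higher on day 1 (0.17 ± 0.05, Q = 0.00626), a scaling that moved the median of the 12376 entries with a mean log2 CPM above 0 up by 0.11 on that day. It had the opposite sign, without a call, when the other transcript rows of the gene were added (-0.09 ± 0.05, Q = 0.0867).

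RELA changed less. Its mean was 164 ± 14.5 CPM on day 0, 140 ± 12.9 CPM on day 1 and 108 ± 9.60 CPM on day 2 (SD, n = 5), and day 1 overlapped with day 0 through 1 library at 163 CPM. It was 1.17-fold lower on day 1 (-0.22 ± 0.07, Q = 0.00775), a call that was lost without TMM factors (-0.11 ± 0.06, Q = 0.15), and 1.52-fold lower on day 2 (-0.60 ± 0.07, Q = 1.78e-09). From day 2 to day 10 its means lay between 108 and 125 CPM, no step between consecutive days was called, days 6 and 8 were higher than day 2 (0.20 and 0.22, Q of 0.0226 and 0.0147), and all 25 libraries were below every day 0 library.

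NFKB1 was the subunit that did not fall. Its libraries held 74.7, 65.9, 66.3, 61.3 and 71.2 CPM on day 0 and 84.2, 75.7, 79.4, 80.6 and 81.5 CPM on day 1, and the 2 days did not overlap (0.24 ± 0.06, Q = 0.00109), as for 20.8% of all entries with every day 1 library above every day 0 library. On day 2 it was back at 64.8 ± 2.29 CPM (SD, n = 5), lower than on day 1 (-0.31 ± 0.06, Q = 5.67e-05) and not called against day 0 (-0.07 ± 0.06, Q = 0.394). The differences of day 6 (0.19 ± 0.06, Q = 0.0141) and day 10 (0.16 ± 0.06, Q = 0.0429) were small, the libraries overlapped with those of day 0, and the day 10 call was lost without day 0 replicate 2, 3 or 4 or day 10 replicate 1 or 2 (log2 fold changes 0.17, 0.15, 0.14, 0.16 and 0.13). In the order of its day means no neighbours were called, and days 6 and 10 were higher than day 2 (0.26 and 0.23, Q of 0.000526 and 0.00246).

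**Figure D2:**
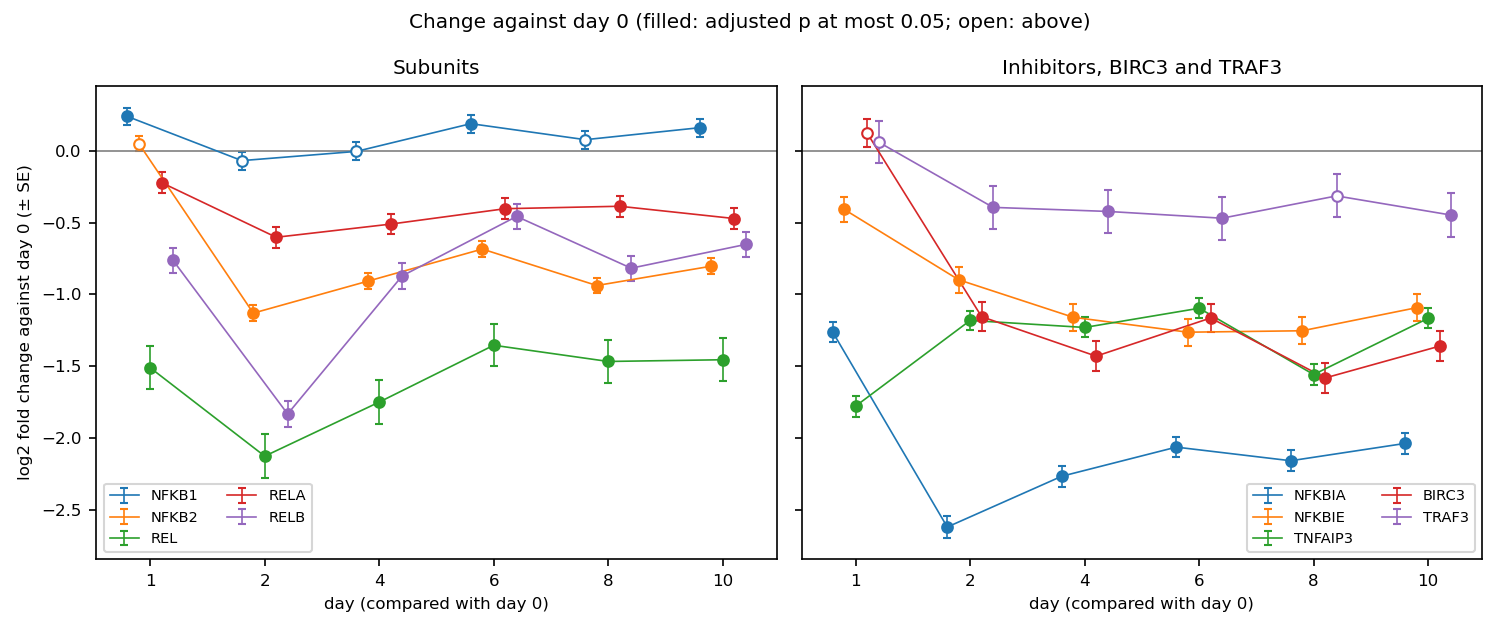
Log2 fold change against day 0 for each gene (y axis) by day (x axis, days spaced evenly), with SE bars, subunits on the left and the other genes on the right. Filled points have an adjusted p of at most 0.05. NFKBIA reached -2.62 and REL -2.13 on day 2, while NFKB1 stayed between -0.07 and 0.24.

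BIRC3 encodes cIAP2, a ubiquitin ligase of receptor complexes. Like NFKB2 it was not called on day 1, with 216, 257, 251, 265 and 287 CPM on day 0 and 292, 281, 293, 248 and 274 CPM on day 1 (0.12 ± 0.10, Q = 0.302). This too depended on the scaling, with a call of higher on day 1 without TMM factors (0.24 ± 0.10, Q = 0.0365). On day 2 it had 106, 120, 125, 112 and 108 CPM, 2.43-fold less than on day 1 (-1.28 ± 0.10, Q = 3.08e-14), and no library overlapped with days 0 or 1. It fell further from day 2 to day 4 (-0.27 ± 0.10, Q = 0.0395) and from day 6 to day 8 (-0.42 ± 0.10, Q = 0.0179), where the 5 libraries spread from 55.5 to 107 CPM. On day 10 it was at 99.2 ± 5.29 CPM (SD, n = 5), 38.9% of day 0 (-1.36 ± 0.10, Q = 3.1e-14).

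TRAF3, the adaptor that holds the noncanonical kinase in check, was the least abundant and the least certain, with 39 to 91 counts a library. Its mean level over the 7 days was 11.9 ± 1.49, 12.3 ± 2.59, 9.03 ± 1.38, 8.84 ± 0.781, 8.55 ± 0.572, 9.58 ± 1.73 and 8.67 ± 1.61 CPM (SD, n = 5). It was called lower on days 2 (-0.39 ± 0.15, Q = 0.0253), 4 (-0.42 ± 0.15, Q = 0.0223), 6 (-0.47 ± 0.15, Q = 0.012) and 10 (-0.45 ± 0.15, Q = 0.0189). It was not called on day 8 (-0.31 ± 0.15, Q = 0.0992), although without day 8 replicate 5 it was (-0.40, Q = 0.0384). Leaving out day 0 replicate 5 ended the calls of days 2, 4 and 10 (-0.34, -0.34 and -0.37), and so did day 2 replicate 3 for day 2 (-0.32), day 0 replicate 2 and day 4 replicates 3 and 4 for day 4 (-0.37, -0.40 and -0.39), and day 0 replicate 2 and day 10 replicate 3 for day 10 (-0.40 and -0.35). With all transcript rows of TRAF3 added, day 1 was called higher (0.28 ± 0.11, Q = 0.022), days 2, 4 and 10 were not called (-0.06, -0.21 and -0.22), and day 6 was still called lower (-0.34 ± 0.11, Q = 0.0122).

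Steps between consecutive days differed in number. From day 1 to day 2, 9 genes were called lower and TNFAIP3 higher, against 19.4% of all entries called lower and 20.2% called higher. From day 2 to day 4, NFKB2, RELB and NFKBIA were called higher (13.9% of all entries) and NFKBIE and BIRC3 lower (16.7%). From day 4 to day 6, NFKB1, NFKB2 and RELB were called higher (6.09%) and none lower (5.98%). From day 6 to day 8, NFKB2, RELB, TNFAIP3 and BIRC3 were called lower, 4 of 10 genes where 1.53% of all entries were, and none higher (1.03%). From day 8 to day 10 TNFAIP3 alone was called, higher (5.08%), and none lower (4.97%). Comparisons that share a day share its 5 libraries.

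Ratios of gene pairs within a library do not depend on scaling between libraries. The log2 ratio of NFKB2 to NFKB1 was 2.07 ± 0.136 on day 0 (SD, n = 5), 1.88 ± 0.0507 on day 1 and 1.01 ± 0.0907 on day 2, and it remained at 1.06 to 1.198 afterwards. All libraries from day 2 on were below every day 0 library, a change of -1.07 on day 2 and -0.97 on day 10 (exact two-sided permutation test, p = 0.00794, the smallest p that 5 against 5 libraries can give, adjusted p = 0.00953 over 18 tests). On day 1 the change was -0.19 (exact p = 0.0317, adjusted p = 0.0357), and 2 of 5 libraries were below every day 0 library. Without day 1 replicate 1 or 3 this change missed the threshold before adjustment (-0.17 and -0.18).

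The ratio of RELB to RELA fell, was near its day 0 level on day 6, and was lower again on day 8. Its change on days 1, 2, 4 and 8 was -0.54, -1.23, -0.35 and -0.43, each with all 5 libraries below every day 0 library (exact permutation p = 0.00794, adjusted p = 0.00953). On day 6 the change was -0.06 (exact p = 0.556), with 1 of 5 libraries below every day 0 library. On day 10 it was -0.18 (exact p = 0.103, adjusted p = 0.109), with 3 of 5 below. Both genes themselves were still called lower than day 0 on day 6 (RELB -0.46, RELA -0.40). Leaving out day 6 replicate 3 turned the day 6 sign (0.0020), and without day 10 replicate 1 the day 10 change passed the exact test before adjustment (-0.25).

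For the inhibitors, the log2 ratio of NFKBIA to NFKBIE in CPM, not adjusted for length, was 1.66 ± 0.0648 on day 0 (SD, n = 5). It was -0.05 ± 0.175 on day 2 and 0.71 ± 0.225 on day 10. The changes of -0.85, -1.71, -1.11, -0.80, -0.92 and -0.95 on days 1 to 10 had all 5 libraries below every day 0 library on each day (exact permutation p = 0.00794, adjusted p = 0.00953).

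**Figure D3:**
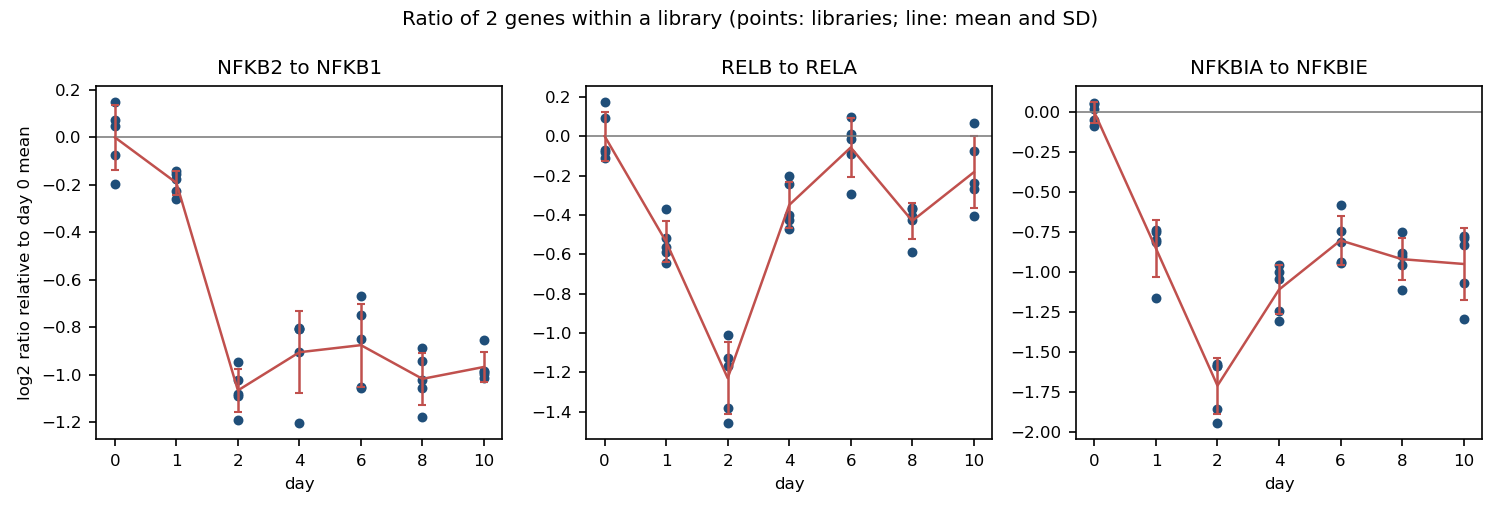
Log2 ratio of 2 genes within each library, relative to the day 0 mean (y axis), by day (x axis, evenly spaced). Points are libraries, and the line shows the mean and SD of 5. NFKB2 to NFKB1 stepped down by 1.07 by day 2 and stayed low, RELB to RELA was lowest on day 2 (-1.23) and near 0 on day 6 (-0.06), and NFKBIA to NFKBIE was lowest on day 2 (-1.71).

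The count table lists other transcript classes of the same genes in rows of their own, such as transcripts with a retained intron, which do not encode the full protein. A test of the share of counts outside the protein-coding row was added after the data had been seen, for the 5 genes with enough counts in such rows. NFKB2 had 23.6%, 19.6%, 25.4%, 20.6% and 20.1% of its counts in other rows on day 0 and 12.8%, 8.83%, 10.4%, 6.29% and 5.68% on day 1. Its retained-intron row went from 15.3% of the summed counts of the gene to 6.18%. On each of the 6 later days all 5 NFKB2 libraries were below every day 0 library (exact permutation p = 0.00794, adjusted p = 0.0238 over 30 tests), with a mean of 15.1% ± 1.83 on day 10 (SD, n = 5). The median share over 6062 genes was 18.5% on day 0 and 14.4% on day 1, and all libraries of a day were below every day 0 library in 18.5%, 18.6%, 13.2%, 10.5%, 10.9% and 9.42% of these genes from day 1 to day 10.

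RELA fell from 16% ± 5.63 of its counts in other rows on day 0 to 7.27% ± 2.66 on day 1 (SD, n = 5, exact permutation p = 0.0159, adjusted p = 0.0367) and 5.58% ± 1.60 on day 6 (adjusted p = 0.0238), and on day 10 it was at 8.61% ± 3.94 (exact p = 0.0476, adjusted p = 0.0893). TRAF3 went the other way. Its share was 33.3%, 23.8%, 33.7%, 35.6% and 24.0% on day 0 and 40.7%, 39.0%, 50%, 36.5% and 44.1% on day 2, all 5 above every day 0 library (exact permutation p = 0.00794, adjusted p = 0.0238), as in 1.8% of the 6062 genes. On day 10 it was 38.3% ± 3.22 with 4 of 5 libraries above (exact p = 0.0159, adjusted p = 0.0367), and without day 10 replicate 3 the difference, 7.12 points, missed the threshold. NFKBIA had 9.12% in other rows on day 0 and 5.06% to 7.74% later, with no day past the threshold (adjusted p of 0.0634 to 0.357). BIRC3 had 1.67% on day 0 and passed only on day 4 (0.803%, adjusted p = 0.0238). Most estimates of these rows rest on how shared sequence was split between transcripts.

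**Figure D4:**
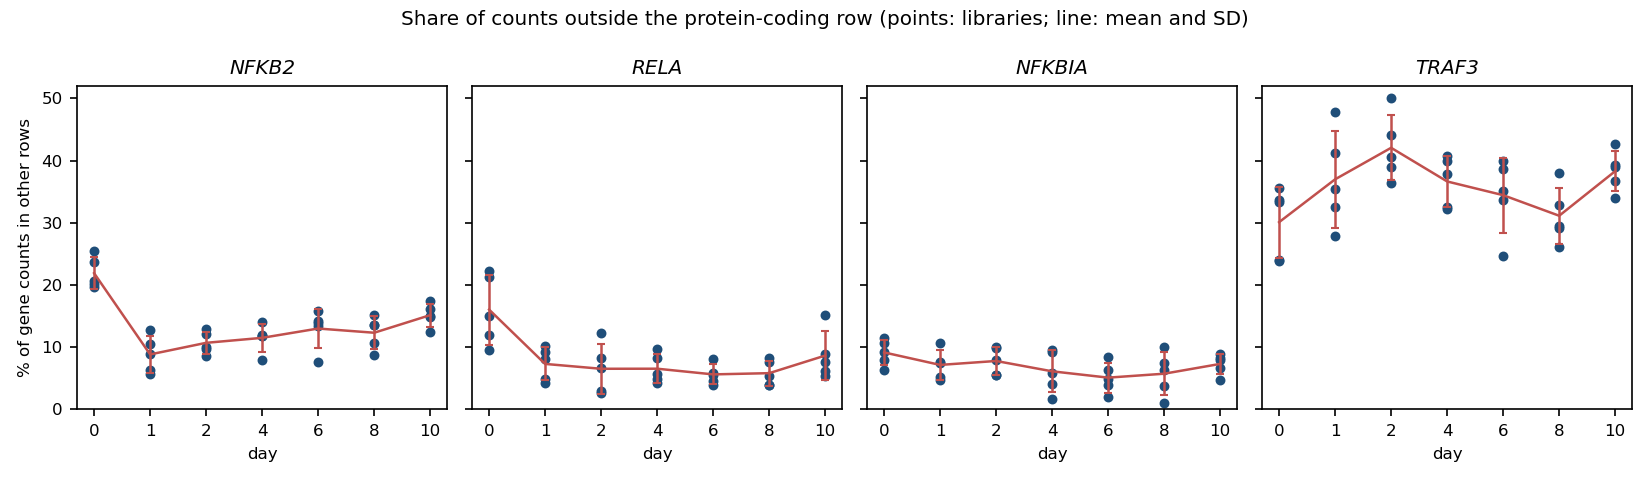
Percentage of a gene's counts outside its protein-coding row (y axis) by day (x axis, evenly spaced) for NFKB2, RELA, NFKBIA and TRAF3. Points are libraries, and the line shows the mean and SD of 5. NFKB2 fell from 21.9% to 8.8% on day 1 and TRAF3 rose from 30.1% to 42.1% on day 2.

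Around these genes, 55 others that signal to NF-kappaB (receptors and ligands, adaptors, kinases, further inhibitors, ubiquitin enzymes) moved in both directions. On day 1, 20 of 55 were called higher and 18 lower, against 25.4% and 27.3% of all entries, those with few counts included. On day 10, 8 and 18 of the 55 were, against 16.1% and 15.8%. Their median log2 fold change was 0.02 on day 1 and -0.04 on day 10. The largest rise on day 1 was that of IKBKE, a kinase related to the IκB kinases, from 12 ± 2.32 to 64.7 ± 4.2 CPM (SD, n = 5, 2.45 ± 0.11, Q = 1.46e-22), followed by SKP1, a subunit of the ligase that marks IκB proteins (1.501 ± 0.049), and TBK1, another IκB kinase relative (1.45 ± 0.06). The largest falls were those of TNFRSF13C, the BAFF receptor, at low counts (-2.30 ± 0.39), TNFRSF17, which encodes BCMA (-1.93 ± 0.11), and NFKBIZ, a nuclear IκB protein, from 28.4 ± 6.78 to 8.40 ± 1.83 CPM (-1.75 ± 0.17). On day 10 IKBKE was still higher (0.75 ± 0.12), FBXW11 (0.42 ± 0.06) and CUL1 (0.38 ± 0.05), of the ligase named above, were the next, and NFKBIZ (-1.37 ± 0.16), BCL10 (-0.96 ± 0.12), an adaptor of antigen receptor signalling, and RIPK1 (-0.93 ± 0.07), a kinase of TNF receptor complexes, were lower.

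Known NF-kappaB target genes other than the 10 were mostly called lower or not called. This list and that of the signalling genes were written from general knowledge with earlier results of these data known. The counts are descriptions of the lists. Of 52 listed, 50 had a count, and 34 had a mean log2 CPM above 0. Counts of calls and medians here are over all 50, low ones included. From day 1 to day 10, 22, 32, 26, 25, 25 and 26 of the 50 were called lower. Over all entries the shares called lower were 27.3%, 24.4%, 20.1%, 17%, 18.6% and 15.8%. Called higher were 6, 3, 6, 5, 5 and 4 of the 50, where 25.4%, 23.2%, 19%, 17.5%, 18.2% and 16.1% of all entries were. The median log2 fold change of the 50 was -0.74 on day 1, -0.97 on day 2 and -0.70 on day 10. The promoter windows of 22 of the 43 listed targets (51.2%) and 12 of the 46 listed signalling genes (26.1%) held the consensus motif. Over all genes with a listed window this share was 13.3%. The targets CXCR5, a chemokine receptor of B cells, fell from 28.5 ± 2.78 to 3.06 ± 0.637 CPM on day 1 (SD, n = 5, -3.20 ± 0.24), and CD69, an activation marker, fell at low counts (-2.79 ± 0.60). CCL3, a chemokine gene with near-identical copies whose reads may have been shared among them, fell from 63.0 ± 14.6 to 1.80 ± 0.763 CPM (-5.13 ± 0.27). On the other side, CXCL8, the gene of interleukin-8, rose from 37.0 ± 9.17 to 105 ± 10.2 CPM on day 1 (1.49 ± 0.15, Q = 8.69e-12) and was lower than on day 0 on day 10, at 8.81 ± 1.36 CPM (-2.08 ± 0.18, Q = 2.77e-12). TNFRSF9, a costimulatory receptor (1.70 ± 0.25), and IL15RA, an interleukin receptor chain (0.88 ± 0.21), were the other large rises of day 1. FAS, a death receptor, had 0.580 ± 0.802 CPM on day 10, down from 14.4 ± 1.97 before the pulse (-4.61 ± 0.66, Q = 2.93e-07), on 18 counts in the 5 day 10 libraries, and without day 10 replicate 3 the value was -5.43. CCL3 (-4.00 ± 0.24) and PLAU, a plasminogen activator (-2.79 ± 0.38), were the next falls of day 10, and IL15RA (1.09 ± 0.21), LTB (0.73 ± 0.14), a TNF family ligand, and STAT5A (0.33 ± 0.08), a transcription factor, rose.

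**Figure D5:**
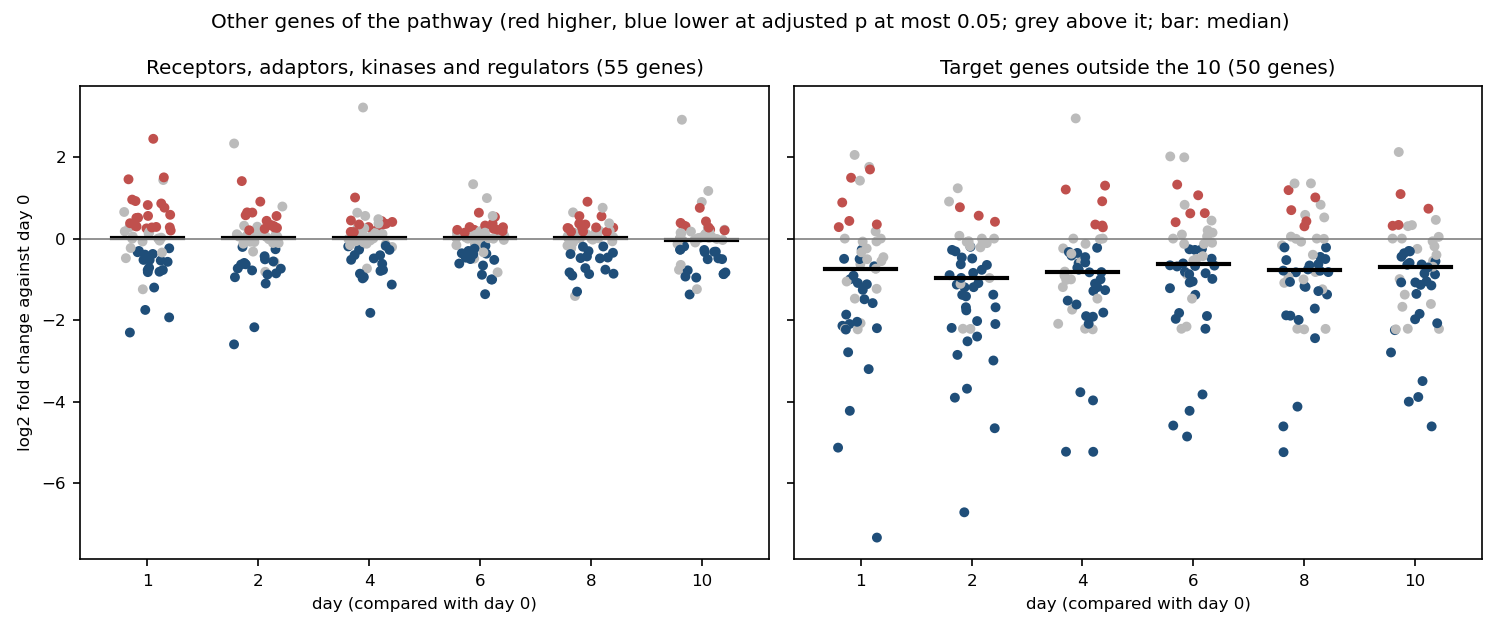
Log2 fold change against day 0 (y axis) of 55 signalling genes (left) and 50 target genes (right) by day (x axis). Red and blue points are called higher and lower, grey points are not called, and the black bar is the median, which lay near 0 for the signalling genes and at -0.63 to -0.97 for the targets.

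Over the 35 libraries, profiles of log2 CPM differed among the 10 genes, and these correlations are descriptions over libraries that share 7 days and have no test. By Pearson's r NFKB2 ran closest to BIRC3 (r = 0.898, Spearman rho = 0.584) and NFKBIA (r = 0.881, rho = 0.897), and by rho it ran closest to NFKBIA and RELA (rho = 0.826). The correlation of NFKB1 and TNFAIP3 was negative and weak (r = -0.342, rho = -0.278). Among 12339 other genes, the one most like NFKBIA was NAMPT (r = 0.977), and for NFKB2 it was IDS (r = 0.959). The closest gene was SUCO for REL (r = 0.939), EIF1 for RELB (r = 0.948), NINJ1 for RELA (r = 0.888), RPS27L for NFKBIE (r = 0.944), GMPPB for TNFAIP3 (r = 0.948) and EZR for BIRC3 (r = 0.944). NFKB1 (TNKS, r = 0.719) and TRAF3 (NFKBIB, r = 0.765) had no gene as close. By Spearman's rho NAMPT and NINJ1 were again first for NFKBIA and RELA, and another gene came first for each of the others.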

How the data were processed

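RNA of RPMI-8226 cells was sequenced as 35 libraries, 5 for each of 7 days. The authors deposited estimated counts (Kallisto 0.44.0, transcripts of GRCh38.p12, adjusted for GC content, summarized with adjustment for gene length), given as whole numbers per gene symbol and transcript class, without normalization for library size. The kit was strand-specific. The effect of dividing shared sequence between transcripts on low rows was not tested. Here the protein-coding rows were used as deposited and tested with edgeR 4.0.16 in R 4.3.3 (glmQLFit, glmQLFTest, TMM factors of 0.929 to 1.08, the day as factor in 1 fit of the 35 libraries, without block, Benjamini-Hochberg over 17999 entries, Q of at most 0.05). SE is the absolute fitted log2 fold change divided by the square root of F. Ratios used log2 CPM with a prior count of 2.

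The method was tested on simulated counts for day 1 against day 0 over 16593 genes, where it called 94 of 100 genes changed 2-fold, 72 of 100 changed 1.5-fold and 7 of 16393 unchanged genes. The changed genes were drawn above a minimum expected count, with rises and falls in equal number, and nearly all other genes were left unchanged. In the data 9480 of 17999 entries were called on day 1, so these rates do not carry over to the data. The highest correlation between libraries of a day was 0.983, and no 2 were identical. The same replicate numbers were used on every day. None of 30 same-number pairs deviated together (correlation over 0.1), so the numbers were not taken to pair the samples. The 10 genes and the lists were chosen with earlier results of these data known. The rule for named genes took all 10, the 3 largest rises and falls of each list on days 1 and 10 among called genes with a mean log2 CPM above 0, and the gene of highest correlation with each. Values of CXCL8 on day 10 were named after being seen. Alternatives were filterByExpr, RLE factors, no factors, a replicate block, fits of 2 days, DESeq2 1.42.0, summed transcript rows, an added fold cutoff, a prior count of 0.5, Spearman correlation and each library left out. The share of other rows was added after the data had been seen. Gene models came from GENCODE and promoters from RefSeq.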

Additional observations from a re-analysis of the deposited data

Results flagged for a closer look

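In 105 groups of 5 libraries (the 10 genes by day in CPM, and the share of other rows of 5 genes by day), the highest or lowest library was compared with its group by Dixon's ratio of its gap to the range, with a critical value of 0.71. Chance gives about 5% of groups, and 4 of 105 passed. NFKB2 was low in day 2 replicate 5, at 118 CPM where the nearest library had 132 CPM. RELA was high in day 1 replicate 4, at 163 CPM against 136 CPM, the library that made day 1 overlap with day 0. RELB was low in day 0 replicate 3, at 53.4 CPM against 64.1 CPM. The share of BIRC3 counts in other rows was high in day 2 replicate 5, at 1.86% against 1.09%.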

How the results depend on the processing

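Of 1020 log2 fold changes of the 10 genes recomputed under an alternative, 982 kept their direction and side of the threshold, 20 lost a call, 4 gained one and 14 changed sign, and in 49 of 60 combinations of gene and day none did. The cause of the others was not tested. With a fold change above 2 added, which by its construction lowers the counts, the 10 genes gave 0 higher on days 1, 6 and 10 and 3 lower on day 1 and 5 on each of days 4 to 10. From day 1 to day 10, the signalling list gave 3, 1, 1, 0, 0 and 0 of 55 higher and 4, 3, 2, 3, 1 and 1 lower. The target list gave 2, 0, 2, 2, 2 and 1 of 50 higher and 16, 21, 15, 12, 13 and 15 lower. Of all entries, 13.2%, 8.94%, 5.29%, 3.52%, 4.58% and 3.52% were lower at this cutoff. The share of all entries higher at this cutoff is not given, so the counts of higher are not set against it. Library sizes without factors shifted the median of the 12376 entries with a mean log2 CPM above 0 up by 0.11, 0.13, 0.11 and 0.07 on days 1, 2, 4 and 10. This scaling gave 3 of the 10 genes higher on day 1, and 18 (day 4) and 13 (day 10) signalling genes higher. Summing all transcript rows gave 2 of the 10 genes higher on day 1, 17 (day 4) and 13 (day 10) signalling genes higher, and 5 targets higher on day 2. The share of all entries called higher under either setting is not given, so these counts are not read as results about the lists. NFKB1 changed sign without a call on day 2 without factors (0.059) and on day 4 with the low-count filter (0.0015), without factors (0.11), with 2 days only (0.010) and with summed rows (0.049), and NFKB2 on day 1 with summed rows (-0.094). Without factors TRAF3 lost its calls on days 2 and 4 (-0.27 and -0.31).

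Leaving out each library, the number of the 10 genes called higher on day 10 was 0 to 1. The ratio of NFKB2 to NFKB1 on day 1 ranged from -0.24 to -0.15 and lost its call without day 1 replicate 1 or 3 (-0.17 and -0.18), RELB to RELA ranged from -0.10 to 0.0020 on day 6 and from -0.25 to -0.13 on day 10, TRAF3 on day 1 from -0.045 to 0.17 and NFKB1 on day 4 from -0.037 to 0.052. The share of other rows of TRAF3 on day 8 ranged from -0.67 to 2.42 points. Ratios and shares were judged here by the exact permutation p before adjustment. The RELA share on day 10 lost its call without 7 of 10 libraries (-9.05 to -5.83 points), and the TRAF3 share on day 10 without day 10 replicate 3 (7.12 points). The replicate block moved calls over all entries from 9480 to 9314 on day 1 and from 5745 to 5717 on day 10 and changed no call of the 10 genes. Same-number libraries correlated best with their own number in 9 of 30 cases. Depth limits TRAF3 most, at 39 to 91 counts a library.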
